A study of Rattus norvegicus with 9 samples.

Results

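The comparison set 3 libraries of neonatal rat cardiomyocytes infected with lenti-TCF7L2 against 3 infected with the control virus lenti-NC. These 6 libraries, of 9 in the series, were taken by their sample titles. The comparison itself was chosen with earlier results of these data known. The other 3 libraries carried a hairpin against TCF7L2. They enter only 1 setting of the closing section and the gene lengths used below, which were averaged over all libraries that list the gene. Cells of both groups were cultured from hearts of Sprague Dawley rats 1 to 2 days old, stayed with the virus for 16 h and were kept for 48 h more in medium with serum. Per the labels, the genotype of the lenti-NC cultures was WT and that of the lenti-TCF7L2 cultures was TCF7L2 overexpression, with the insert named TCF7L2 WT. The labels used here do not give the species of the insert, the promoter that drives it or the share of cells infected. They also do not say that replicates were separate cultures, so every p-value measures only the spread between these libraries, which may be technical.

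TCF7L2 is a DNA-binding factor of the TCF/LEF family, the nuclear end of canonical Wnt signalling. When a Wnt ligand reaches a Frizzled and LRP receptor pair, β-catenin escapes degradation, enters the nucleus and turns TCF/LEF factors into activators, and without it Groucho/TLE corepressors hold the same sites silent. In the heart the pathway acts in progenitor cells and in the endothelium, is low in resting adult muscle and is engaged again in hypertrophy and injury. The series title places carbonic anhydrase 2 downstream of TCF7L2 in diabetic cardiomyopathy, and lenti-TCF7L2 against lenti-NC asks how raised TCF7L2 alters the cells' messenger RNA.

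Of 11647 genes tested, 2321 changed (19.9%), of which 1265 rose (10.9%) and 1056 fell (9.07%). A change here is an adjusted p under 0.05 in edgeR's quasi-likelihood test on the 6 libraries. At least a 2-fold change was added to that in 351 genes that rose (3.01%) and 307 that fell (2.64%). Of the changed genes 54.5% rose, against 64.6% (1541 higher, 846 lower) with limma on log2(FPKM + 0.1). The median log2 difference over all genes tested was 0.0197, and all log2 differences below are lenti-TCF7L2 minus lenti-NC. Libraries held 15143338 to 15259536 counts with lenti-NC and 15478292 to 16478295 with lenti-TCF7L2, so that 3 counts, the limit that a count of 0 allows, correspond to 0.180 to 0.203 CPM (counts per 1000000, with TMM-scaled library sizes).

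One library stood apart over genes as a whole, as was known when the comparison was set up. In lenti-TCF7L2 replicate 3 the median log2 difference from the control mean was 0.488 for genes up to 1000 bases long and -0.959 for genes over 8000 bases. The same medians were 0.134 and -0.342 in replicate 1, and -0.0896 and -0.0217 in replicate 2. Pearson's r of log2 CPM across genes, which are not independent replicates, was 0.9905 between replicates 1 and 2, 0.9673 between 1 and 3, 0.9464 between 2 and 3, and at least 0.9947 among the lenti-NC libraries. Without replicate 3 the number of changed genes was 4353 of 11730 tested (37.1%), with 2136 higher (18.2%) and 2217 lower (18.9%). Of the 2321 genes, 2313 were called again without replicate 3, 1260 higher and 1053 lower, and none changed direction. Leaving out 1 lenti-NC library gave 678 to 778 calls, leaving out lenti-TCF7L2 replicate 1 gave 1059 and leaving out replicate 2 gave 3389. Every library was therefore left out in turn for each gene and list, and 619 genes (273 higher, 346 lower) passed in all 6 of these fits. A gene said below to have risen or fallen passed in all 6 unless its highest adjusted p over them is given with the library left out. For lists, the number that passed in all 6 stands beside the count of members called. The counts of members called are to be read beside the 10.9% of all genes that rose and 9.07% that fell. The counts in all 6 fits are to be read beside the much smaller 273 higher and 346 lower of 11647 genes. For counts without replicate 3 the shares are 18.2% and 18.9%. Without lenti-TCF7L2 replicate 2, 1794 of 11739 genes were higher and 1595 lower, and without replicate 1, 576 and 483 of 11763. Without 1 lenti-NC library 311 to 386 genes were higher and 367 to 393 lower. What sets the length trend of replicate 3 was not tested.

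**Figure D1:**
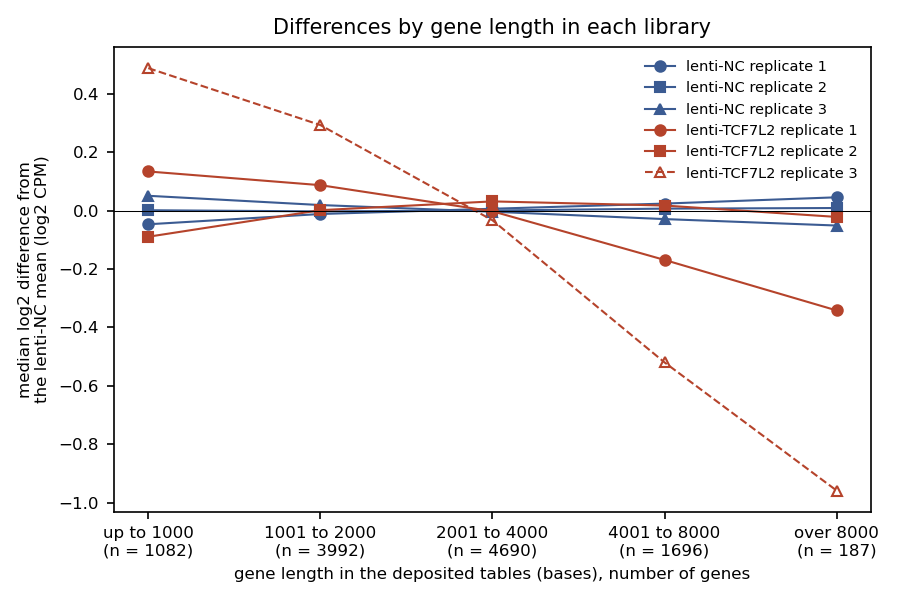
Median log2 difference from the mean of the lenti-NC libraries (y axis, log2 CPM) for genes in 5 bins of length in bases (x axis, with the number of genes), 1 line per library, blue for lenti-NC and red for lenti-TCF7L2. The dashed line of lenti-TCF7L2 replicate 3 runs from 0.488 to -0.959, replicate 1 falls less steeply, and replicate 2 and the lenti-NC libraries stay near 0.

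Markers of the cultured cell types were read next, since a bulk library cannot tell fewer cells of a type from less RNA per cell. Of 9 cardiomyocyte markers tested (Ttn has no value here), 7 fell, 5 of them in all 6 fits, and their summed level was 54500 to 55450 CPM with lenti-NC and 23890 to 30250 CPM with lenti-TCF7L2. The labelled cell type was thus present in every library by its markers. Fibroblast markers, 16 genes, summed to 26860 to 27860 CPM and 29350 to 33510 CPM, and smooth muscle and pericyte markers to 10820 to 11120 CPM and 9354 to 10580 CPM. The 26 endothelial markers summed to 909.8 to 945 CPM and 1184 to 1377 CPM, and 14 macrophage and leukocyte markers to 73.1 to 79.4 CPM and 126 to 134 CPM, while the lymphocyte markers Cd3e, Cd79b and Ms4a1 were listed in none of the 6 libraries. Erythroid markers stayed at 2.70 to 3.98 CPM and 3.83 to 4.85 CPM, with 4 of 13 tested and 0 called in edgeR, 0 at an unadjusted p under 0.05 and 0 in DESeq2. The part of such shifts between cell types in the results below was not tested.

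**Figure D2:**
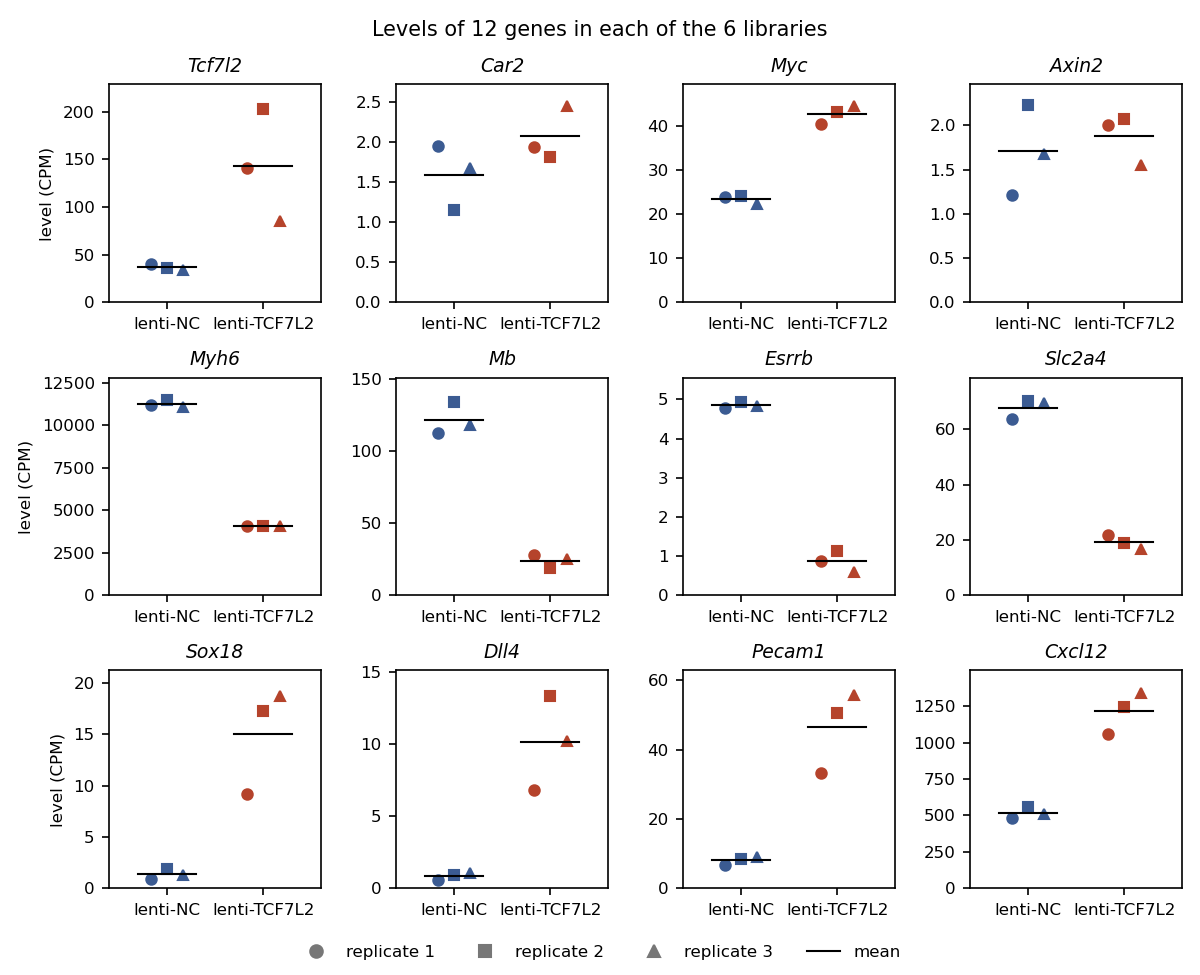
Level (CPM, linear axis from 0) of 12 genes in each library, lenti-NC in blue and lenti-TCF7L2 in red, with circles, squares and triangles for replicates 1, 2 and 3 and a line at the group mean. The groups are separate for all but Car2 and Axin2, and Tcf7l2 itself differs most among the lenti-TCF7L2 libraries, from 85.9 to 203 CPM.

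Tcf7l2 itself (Entrez gene 679869), the overexpressed gene, stood at 40.1, 36.5 and 34.2 CPM with lenti-NC and 141, 203 and 85.9 CPM with lenti-TCF7L2. All lenti-TCF7L2 libraries lay above all control libraries, with replicate 2 highest and replicate 3 lowest. It rose by 1.96 (SE 0.30, adjusted p = 0.00732), with an adjusted p of at most 0.0499 when a library was left out and a difference of 2.22 (adjusted p = 8.27e-06) without replicate 3. Reads of the insert count here only as far as they match the rat gene. Car2, the carbonic anhydrase of the series title, had 29, 17 and 25 expected counts in the control libraries and 31, 29 and 41 in the lenti-TCF7L2 libraries, and the groups overlapped. Its log2 difference was 0.38 (95% interval -0.24 to 1.00, adjusted p = 0.328), and 0.24 without replicate 3. No difference in Car2 was detectable at this depth.

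Other carbonic anhydrases, the enzymes that interconvert carbon dioxide and bicarbonate, moved in both directions. Of 12 tested, 4 rose and 1 fell, with 1 and 1 in all 6 fits. Car14, a membrane-bound isoform with its active site outside the cell, stood at 27.8, 32.1 and 31.1 CPM with lenti-NC and 15.9, 15.1 and 13.9 CPM with lenti-TCF7L2. Every lenti-TCF7L2 library read below every control library, and Car14 fell, with a difference of -1.02 (SE 0.11, adjusted p = 0.00313). Car11, a related protein without catalytic activity, stood at 16.7, 17.5 and 20.1 CPM with lenti-NC and 35.2, 29.9 and 38.6 CPM with lenti-TCF7L2 and rose by 0.93 (SE 0.14, adjusted p = 0.00663). Car4, a membrane-anchored isoform of capillaries, stood at 1.55, 2.23 and 1.88 CPM with lenti-NC and 4.77, 5.77 and 13.1 CPM with lenti-TCF7L2. Its groups did not overlap and it rose by 2.06 (SE 0.44, adjusted p = 0.0203), with an adjusted p of 0.0939 without lenti-NC replicate 1. Among transporters that move bicarbonate, protons and lactate across the membrane, 1 of 14 rose and 2 fell, all 3 in all 6 fits. Slc4a3, a chloride-bicarbonate exchanger, had a difference of -0.94, the lactate transporter Slc16a1 one of -0.91 and the exchanger-binding scaffold Slc9a3r1 one of 0.88 (adjusted p = 0.00325, 0.00465 and 0.00515).

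Some of the Wnt pathway's own genes changed, in both directions, beside 10.9% of all genes that rose and 9.07% that fell. Of 16 TCF/LEF factors, β-catenin partners and corepressors tested, 4 rose and 0 fell, and beside Tcf7l2 these were the corepressors Tle3 (0.54) and Tle2 (0.55) and the coactivator Pygo2 (0.39). Of these only Tcf7l2 passed in all 6 fits, and the highest adjusted p was 0.0884 for Tle3 without lenti-NC replicate 3, 0.138 for Tle2 without lenti-NC replicate 1 and 0.143 for Pygo2 without lenti-NC replicate 3. Of 20 feedback and target genes tested, 5 rose and 2 fell, with a list median of -0.03 that became 0.08 without replicate 3. Myc, a growth-promoting factor, stood at 23.9, 24.1 and 22.3 CPM with lenti-NC and 40.5, 43.2 and 44.6 CPM with lenti-TCF7L2. The groups were far apart, and Myc rose by 0.87 (SE 0.09, adjusted p = 0.00298) as the only member called in all 6 fits. Axin2, a scaffold that limits β-catenin and is widely used as a pathway readout, stood at 1.21, 2.23 and 1.68 CPM with lenti-NC and 2.01, 2.07 and 1.56 CPM with lenti-TCF7L2. The groups overlapped at these low levels, with a difference of 0.14 (95% interval -0.52 to 0.79, adjusted p = 0.743). Nkd1, another feedback inhibitor, differed by 0.50 (adjusted p = 0.113) and Lef1 by 0.26 (adjusted p = 0.429), and the feedback genes Sp5, Notum, Lgr5 and Tnfrsf19 had too few counts to be tested.

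Upstream in the pathway, 4 of 24 ligands, receptors and antagonists rose and 4 fell, beside 10.9% and 9.07% of all genes, with 1 and 2 in all 6 fits. Fzd6, a Frizzled receptor, stood at 44.4, 47.0 and 44.5 CPM with lenti-NC and 25.1, 27.7 and 26.8 CPM with lenti-TCF7L2. It read lower in each lenti-TCF7L2 library than in any control, and fell, with a difference of -0.77 (SE 0.09, adjusted p = 0.00375). Wls, which carries Wnt ligands to the cell surface, had a difference of -0.58 (SE 0.07, adjusted p = 0.00493). The ligand Wnt4 rose by 2.00 (SE 0.36, adjusted p = 0.0122), with an adjusted p of 0.0671 without lenti-NC replicate 1. Frzb, a secreted antagonist, rose by 1.05 (SE 0.15, adjusted p = 0.00659).

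The letters that TCF/LEF factors prefer were looked for in the RefSeq promoter windows of the rat build GRCr8, which reach from 250 bases before to 50 after each gene's start. The search used CTTTGAT on either strand, and 205 of 9483 tested genes with a window held it (2.16%), against 14 of 993 that rose (1.41%) and 6 of 837 that fell (0.717%). Over all 27457 windows the share was 3.62%. Windows of Axin2, Cxcl12 and Cd36 are shown because they hold the letters in genes whose levels are reported here as not called, higher and lower. Capitals mark the motif or its reverse complement ATCAAAG, with the gene's strand read 5′ to 3′. The first base of the motif lies at positions -132, -198 and -143 from the start, in stretches at chr10:94398636-94398676, chr4:152060566-152060606 and chr4:18246422-18246462, all on the plus strand. A match describes the letters and is neither a binding site nor a cause.
Axin2: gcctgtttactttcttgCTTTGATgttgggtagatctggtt
Cxcl12: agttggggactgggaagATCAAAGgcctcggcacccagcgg
Cd36: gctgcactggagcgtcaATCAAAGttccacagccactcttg

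Most genes of the contractile apparatus fell. In the thick filament and M band, 11 of 13 genes tested fell and 1 rose, beside 9.07% and 10.9% of all genes, and 10 of those that fell did so in all 6 fits. The median difference was -1.05 with the 6 libraries and -1.08 without replicate 3, and by library it was -1.07, -1.03 and -0.99, so the library that stood apart gave nearly the same value. Myh6, the fast cardiac myosin heavy chain, stood at 11163, 11485 and 11053 CPM with lenti-NC and 4068, 4098 and 4071 CPM with lenti-TCF7L2. The 3 lenti-TCF7L2 libraries differed little from each other and lay far below the controls, at a difference of -1.46 (SE 0.10, adjusted p = 0.00169). Myl1, an essential light chain of fast skeletal and fetal muscle, stood at 8.83, 8.45 and 9.18 CPM with lenti-NC and 1.25, 0.753 and 1.86 CPM with lenti-TCF7L2 and had the largest fall of the list, with a difference of -2.76 (SE 0.28, adjusted p = 0.00253). Myom2, which ties thick filaments together at the M band, stood at 272, 397 and 351 CPM with lenti-NC and 78.5, 87.7 and 57.2 CPM with lenti-TCF7L2. All 3 lenti-TCF7L2 values were under the lowest control value, with a difference of -2.19 (SE 0.21, adjusted p = 0.00235). Its relative Myom1 had a difference of -1.08, the slow heavy chain Myh7 of -1.05 and the ventricular light chain Myl2 of -1.19. Myl7, the atrial regulatory light chain, was the exception at 32.3, 32.0 and 34.2 CPM with lenti-NC and 55.5, 50.8 and 85.7 CPM with lenti-TCF7L2, and rose by 0.96 (SE 0.20, adjusted p = 0.0203) with replicate 3 highest, an adjusted p of 0.0918 without lenti-NC replicate 1, and a difference of 0.69 (adjusted p = 1.49e-04) without replicate 3. Mybphl, a myosin-binding protein of atrial muscle, differed by 1.57 (adjusted p = 0.0546) from low levels, and by 1.77 (adjusted p = 0.00762) without replicate 3.

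In the thin filament and Z disc, 14 of 24 genes fell and 0 rose, with 7 lower in all 6 fits. The number lower was 8 without 1 of the lenti-NC libraries, 7 without lenti-TCF7L2 replicate 1, 17 without replicate 2 and 23 without replicate 3. The groups did not overlap for 19 of the 24, all lower with lenti-TCF7L2, against 23.1% of all genes lower without overlap and 46.7% without overlap in either direction. Actn2, the Z-disc α-actinin that anchors actin, stood at 1681, 1609 and 1648 CPM with lenti-NC and 865, 878 and 933 CPM with lenti-TCF7L2. Its controls lay above every lenti-TCF7L2 library, at a difference of -0.88 (SE 0.08, adjusted p = 0.00235). Acta1, the skeletal α-actin of fetal heart, had a difference of -1.29 (SE 0.13, adjusted p = 0.00250), and Ldb3, a Z-disc adaptor, one of -1.23 (SE 0.15, adjusted p = 0.00400). Tnnt2, the troponin that binds tropomyosin, stood at 3181, 3243 and 3374 CPM with lenti-NC and 1980.1, 1685 and 3263 CPM with lenti-TCF7L2, with replicate 3 next to the controls, and its difference was -0.50 (adjusted p = 0.187) in the 6 libraries and -0.84 (adjusted p = 7.05e-05) without replicate 3.

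Many genes of calcium handling and excitability fell, and single genes rose. In the sarcoplasmic reticulum and calcium list 11 of 22 fell and 1 rose (7 and 1 in all 6 fits). Among sodium, potassium and pacemaker channels 12 of 22 fell and 1 rose (7 and 1 in all 6). Without replicate 3 the numbers lower were 16 and 17. Casq1, a calsequestrin that buffers calcium in the reticulum, stood at 289.9, 285 and 279.8 CPM with lenti-NC and 123, 104 and 114 CPM with lenti-TCF7L2. It was lower in every lenti-TCF7L2 library, at a difference of -1.33 (SE 0.09, adjusted p = 0.00169), and the cardiac form Casq2 differed by -1.05 (SE 0.08, adjusted p = 0.00190). Sln, sarcolipin, a small inhibitor of the calcium pump that is typical of atrial muscle, stood at 1.89, 1.82 and 1.94 CPM with lenti-NC and 7.97, 4.52 and 6.71 CPM with lenti-TCF7L2. Its groups were apart in the other direction and it rose by 1.76 (SE 0.24, adjusted p = 0.00574), while the pump Atp2a2 fell, with a difference of -1.15 (SE 0.11, adjusted p = 0.00235).

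Channel genes included both kinds. Scn4b, a β subunit of sodium channels, stood at 15.8, 15.9 and 17.8 CPM with lenti-NC and 5.64, 5.90 and 4.13 CPM with lenti-TCF7L2. The values of the 2 groups lay far apart, with a difference of -1.66 (SE 0.16, adjusted p = 0.00250). Kcne3, a β subunit that modifies potassium channels, stood at 0.809, 1.01 and 0.469 CPM with lenti-NC and 4.01, 5.64 and 9.22 CPM with lenti-TCF7L2. Every control library held under 1.1 CPM, and Kcne3 rose by 3.03 (SE 0.42, adjusted p = 0.00565) and by 2.65 (adjusted p = 1.33e-04) without replicate 3. Ryr2, the calcium release channel, stood at 795, 827 and 784 CPM with lenti-NC and 252, 376 and 145 CPM with lenti-TCF7L2. Its difference was -1.64 (SE 0.32, adjusted p = 0.0156) with the 6 libraries and -1.35 (adjusted p = 8.21e-05) without replicate 3, and its adjusted p reached 0.0683 without lenti-TCF7L2 replicate 1. Replicate 3 was the lowest of the lenti-TCF7L2 libraries for Ryr2 and also for Kcnj2, which carries the inward rectifier current. Kcnj2 differed by -1.99 with the 6 libraries, by -1.56 without replicate 3, and had an adjusted p of 0.110 without lenti-NC replicate 1.

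At the intercalated disc, where heart muscle cells join, 7 of 13 genes fell and 2 rose, 2 and 0 in all 6 fits. Pkp2, a desmosomal plakophilin, stood at 324, 326 and 329 CPM with lenti-NC and 191, 191 and 186 CPM with lenti-TCF7L2 and fell, with a difference of -0.78 (SE 0.07, adjusted p = 0.00220). Ctnna1, which links cadherins to actin, had a difference of -0.59 (SE 0.08, adjusted p = 0.00502). Connexins, the proteins of gap junctions, moved in both directions. Gja1, the connexin of working muscle, differed by -0.65 (SE 0.11, adjusted p = 0.00971), with an adjusted p of 0.0599 without lenti-NC replicate 3. Gja4, a connexin of arterial endothelium, rose by 1.17 (SE 0.20, adjusted p = 0.0103), with an adjusted p of 0.0614 without lenti-NC replicate 3.

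Several receptors for transmitters fell, among them Gpr22 and Adra1d. Of 14 adrenergic, muscarinic, purinergic, endothelin and orphan receptors, 7 fell and 0 rose, with 2 in all 6 fits, and without replicate 3 10 fell and 2 rose. Gpr22, an orphan receptor of heart muscle, stood at 18.1, 19.3 and 18.5 CPM with lenti-NC and 3.45, 4.20 and 3.77 CPM with lenti-TCF7L2. The lenti-TCF7L2 libraries were within 1 CPM of each other and far under the controls, at a difference of -2.29 (SE 0.13, adjusted p = 0.00169). Adra1d, an α1-adrenergic receptor, differed by -0.69 (SE 0.11, adjusted p = 0.00732). Adrb1, the main β-adrenergic receptor of heart muscle, differed by -0.77 (SE 0.20, adjusted p = 0.0427), with an adjusted p of 0.145 without lenti-NC replicate 3 and a difference of -0.59 without replicate 3. With limma on log2(FPKM + 1) and no filter its adjusted p was 0.0589.

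The natriuretic peptides Nppa and Nppb fell. In the list of natriuretic peptides and hypertrophy genes 6 of 18 fell and 1 rose, 4 and 0 in all 6 fits. Nppa, the atrial natriuretic peptide used as a marker of hypertrophy, stood at 10693, 11914 and 12679 CPM with lenti-NC and 5642, 4769 and 6539 CPM with lenti-TCF7L2. All lenti-TCF7L2 libraries were lower, at a difference of -1.06 (SE 0.15, adjusted p = 0.00655). With limma on log2(FPKM + 1) and no filter the adjusted p was 0.0967 for Nppa and 0.0510 for Nppb. Nppb, the B-type peptide, differed by -0.82 (SE 0.18, adjusted p = 0.0242), with an adjusted p of 0.0984 without lenti-NC replicate 3. Popdc2, a cyclic AMP-binding membrane protein of muscle, stood at 456, 452 and 448 CPM with lenti-NC and 200.4, 213 and 206 CPM with lenti-TCF7L2 and fell, with a difference of -1.13 (SE 0.07, adjusted p = 0.00169). The 1 gene that rose, the angiotensin receptor Agtr1a, differed by 0.76 (SE 0.12, adjusted p = 0.00779) and had an adjusted p of 0.0553 without lenti-NC replicate 3.

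Among cardiac transcription factors the orphan nuclear receptor Esrrb, the zinc-finger factor Gata5 and the Iroquois factor Irx3 fell. Of 23 tested, 9 fell and 1 rose, with 3 lower in all 6 fits. Esrrb, an estrogen-related receptor, stood at 4.79, 4.93 and 4.83 CPM with lenti-NC and 0.878, 1.13 and 0.599 CPM with lenti-TCF7L2. No lenti-TCF7L2 library came near the controls, and the difference was -2.47 (SE 0.23, adjusted p = 0.00235). Gata5, a factor of endocardium and myocardium, stood at 49.0, 46.1 and 48.0 CPM with lenti-NC and 22.0, 23.6 and 21.1 CPM with lenti-TCF7L2 and fell, with a difference of -1.10 (SE 0.09, adjusted p = 0.00198). Irx3, which patterns conduction genes, differed by -1.03 (SE 0.12, adjusted p = 0.00383). Gata4, a core cardiac factor, differed by -0.37 (SE 0.09, adjusted p = 0.0261), with an adjusted p of 0.120 without lenti-NC replicate 2. Nkx2-5, the homeobox factor of the cardiac lineage, was at 131, 132 and 131 CPM with lenti-NC and 96.6, 87.4 and 130.0 CPM with lenti-TCF7L2, and its difference of -0.33 (adjusted p = 0.168) became -0.52 (adjusted p = 4.14e-04) without replicate 3. Tbx2, a repressor that holds back chamber genes, rose by 0.97 (SE 0.19, adjusted p = 0.0172), with an adjusted p of 0.0842 without lenti-NC replicate 1.

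The regulators that switch heart muscle to fat and oxygen were lower in part. Of 16 PPAR and PGC-1 genes and targets, 6 fell and 1 rose, with 1 and 1 in all 6 fits. Perm1, a muscle coregulator downstream of PGC-1, stood at 20.6, 19.4 and 18.8 CPM with lenti-NC and 8.22, 7.53 and 7.31 CPM with lenti-TCF7L2 and fell, with a difference of -1.35 (SE 0.11, adjusted p = 0.00190). Ppargc1a, the PGC-1α coactivator of mitochondrial biogenesis, stood at 35.4, 38.8 and 34.6 CPM with lenti-NC and 13.2, 13.5 and 2.81 CPM with lenti-TCF7L2. Replicate 3 read lowest by far, and the difference was -1.89 (SE 0.51, adjusted p = 0.0435) with it, -1.44 (adjusted p = 1.14e-05) without it, and had an adjusted p of 0.135 without lenti-NC replicate 2. Ppara, the fatty acid-sensing receptor, differed by -1.91 and by -1.58 without replicate 3, with an adjusted p of 0.0656 without lenti-NC replicate 1. Angptl4, a secreted inhibitor of lipoprotein lipase, went the other way at 14.8, 25.0 and 18.4 CPM with lenti-NC and 81.0, 98.4 and 101 CPM with lenti-TCF7L2 and rose by 2.27 (SE 0.21, adjusted p = 0.00220).

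Some genes for the uptake and activation of fatty acids fell, among them Cd36, Acsl1 and Fabp3. In this list 9 of 29 fell and 2 rose, with 4 and 1 in all 6 fits. Cd36, the fatty acid translocase whose promoter window is printed above, stood at 104, 123 and 116 CPM with lenti-NC and 52.7, 46.9 and 48.5 CPM with lenti-TCF7L2. Each lenti-TCF7L2 library read lower than any control, at a difference of -1.21 (SE 0.10, adjusted p = 0.00190). Acsl1, which activates fatty acids with coenzyme A, differed by -1.07 (SE 0.09, adjusted p = 0.00190), and the muscle carrier Fabp3 by -1.11 (SE 0.15, adjusted p = 0.00565). Fabp4, the carrier of fat and capillary cells, rose by 2.04 (SE 0.29, adjusted p = 0.00608) from a low level of 0.540, 0.878 and 0.737 CPM with lenti-NC and 2.76, 2.38 and 3.77 CPM with lenti-TCF7L2.

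Enzymes that feed and turn the tricarboxylic acid cycle fell for the most part. Of 25 tested, 20 fell and 0 rose, 12 of them in all 6 fits, with a median of -0.68. The number lower was 12 to 14 without 1 of the lenti-NC libraries, 14 without lenti-TCF7L2 replicate 1, 20 without replicate 2 and 25 without replicate 3. Pdha1, the catalytic subunit of pyruvate dehydrogenase, stood at 836, 817 and 833 CPM with lenti-NC and 428, 396 and 399 CPM with lenti-TCF7L2. The groups did not overlap, and the difference was -1.02 (SE 0.08, adjusted p = 0.00190). Its partner Dlat differed by -1.11 (SE 0.11, adjusted p = 0.00250) and the succinate dehydrogenase subunit Sdha by -0.84 (SE 0.08, adjusted p = 0.00220). For 23 of the 25 genes every lenti-TCF7L2 library lay under every control library, against 23.1% of all genes.

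Counts of called respiratory chain genes turned on 1 library. Among nuclear-encoded subunits of complex I 1 of 34 fell with the 6 libraries and 33 of 34 without replicate 3. The list's median difference from the controls was -0.43, -0.76 and 0.05 in replicates 1, 2 and 3, so replicate 3 alone stood at the control level. Of the 34 genes 26 are under 1000 bases long in the deposited tables, and after a length adjustment of each library 32 of 34 fell, against 13.8% of all genes lower and 30.3% changed in that fit. Of complexes III to V 8 of 38 fell with the 6 libraries, 37 without replicate 3 and 36 after length adjustment, with library medians of -0.47, -0.86 and -0.03. No member of either list rose in any of these fits. Ndufs1, the largest iron-sulfur subunit of complex I, stood at 309.6, 318 and 329 CPM with lenti-NC and 157, 149 and 161 CPM with lenti-TCF7L2. It read lower in replicate 3 as well, and its difference was -1.03 (SE 0.08, adjusted p = 0.00184). Ndufb9, an accessory subunit, stood at 179, 185 and 193 CPM with lenti-NC and 131, 99.9 and 157 CPM with lenti-TCF7L2, and its difference of -0.52 (adjusted p = 0.0669) became -0.69 (adjusted p = 7.54e-04) without replicate 3. Uqcrc2, a core subunit of complex III, stood at 370.4, 395 and 408 CPM with lenti-NC and 224, 212 and 242 CPM with lenti-TCF7L2 and fell, with a difference of -0.79 (SE 0.09, adjusted p = 0.00326). Cox8b, the heart and muscle form of a complex IV subunit, differed by -1.56 (SE 0.25, adjusted p = 0.00857), with an adjusted p of 0.0479 without lenti-NC replicate 3, and the ATP synthase subunit Atp5a1 by -0.68 (SE 0.11, adjusted p = 0.00990), with an adjusted p of 0.0598 without lenti-NC replicate 3.

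**Figure D3:**
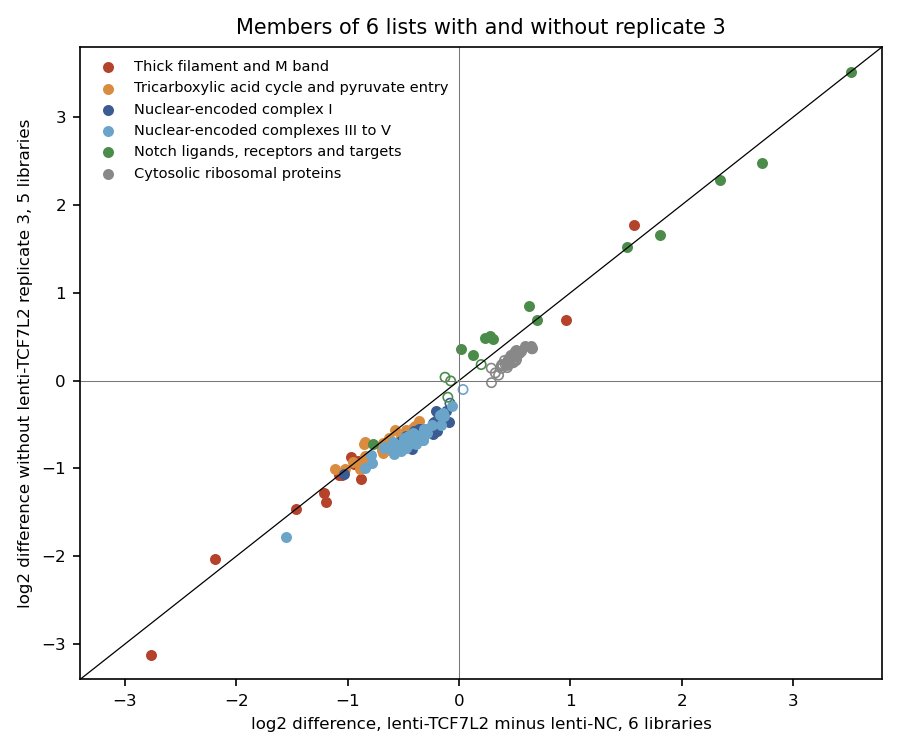
Log2 difference of each tested member of 6 lists with all 6 libraries (x axis) and without lenti-TCF7L2 replicate 3 (y axis), with the line of equality. Filled points passed the test without replicate 3 and open points did not. All genes of complex I, of complexes III to V and of the cytosolic ribosome lie below the line.

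Slc2a4, of glucose uptake, and Mb, of oxygen storage, fell. In glucose uptake and glycolysis 10 of 30 fell and 0 rose, 4 in all 6 fits. Slc2a4, the insulin-responsive glucose transporter, stood at 63.8, 70.1 and 69.3 CPM with lenti-NC and 21.8, 18.8 and 16.7 CPM with lenti-TCF7L2. The lenti-TCF7L2 libraries were all under the lowest control, at a difference of -1.83 (SE 0.12, adjusted p = 0.00169). Pygm, the muscle glycogen phosphorylase, differed by -1.05 (SE 0.09, adjusted p = 0.00190) and the muscle phosphofructokinase Pfkm by -0.73 (SE 0.08, adjusted p = 0.00275). Slc2a1, the transporter found in most cells, differed by -0.05 (adjusted p = 0.687). Among creatine kinases, myoglobin and mitochondrial carriers 9 of 16 fell and 0 rose, 4 in all 6 fits. Mb, myoglobin, stood at 112, 134 and 118 CPM with lenti-NC and 28.1, 18.9 and 24.9 CPM with lenti-TCF7L2, a difference of -2.34 (SE 0.16, adjusted p = 0.00169) with no overlap. Ckmt2, the mitochondrial creatine kinase of muscle, differed by -2.06 (SE 0.16, adjusted p = 0.00190).

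Lipid synthesis genes were lower for a few enzymes. Of 16 fatty acid synthesis and desaturation genes 5 fell and 1 rose, and of 26 sterol genes 9 fell and 1 rose, with 2 and 3 lower and none higher in all 6 fits. Scd, the stearoyl-CoA desaturase, stood at 78.9, 49.9 and 63.2 CPM with lenti-NC and 14.0, 12.7 and 8.68 CPM with lenti-TCF7L2. The controls varied more than for most genes, but no lenti-TCF7L2 library reached them, and the difference was -2.44 (SE 0.24, adjusted p = 0.00250). Scd2 differed by -1.27 (SE 0.18, adjusted p = 0.00630). Insig1, which retains the sterol sensor in the endoplasmic reticulum, differed by -0.65 (SE 0.09, adjusted p = 0.00518).

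**Figure D4:**
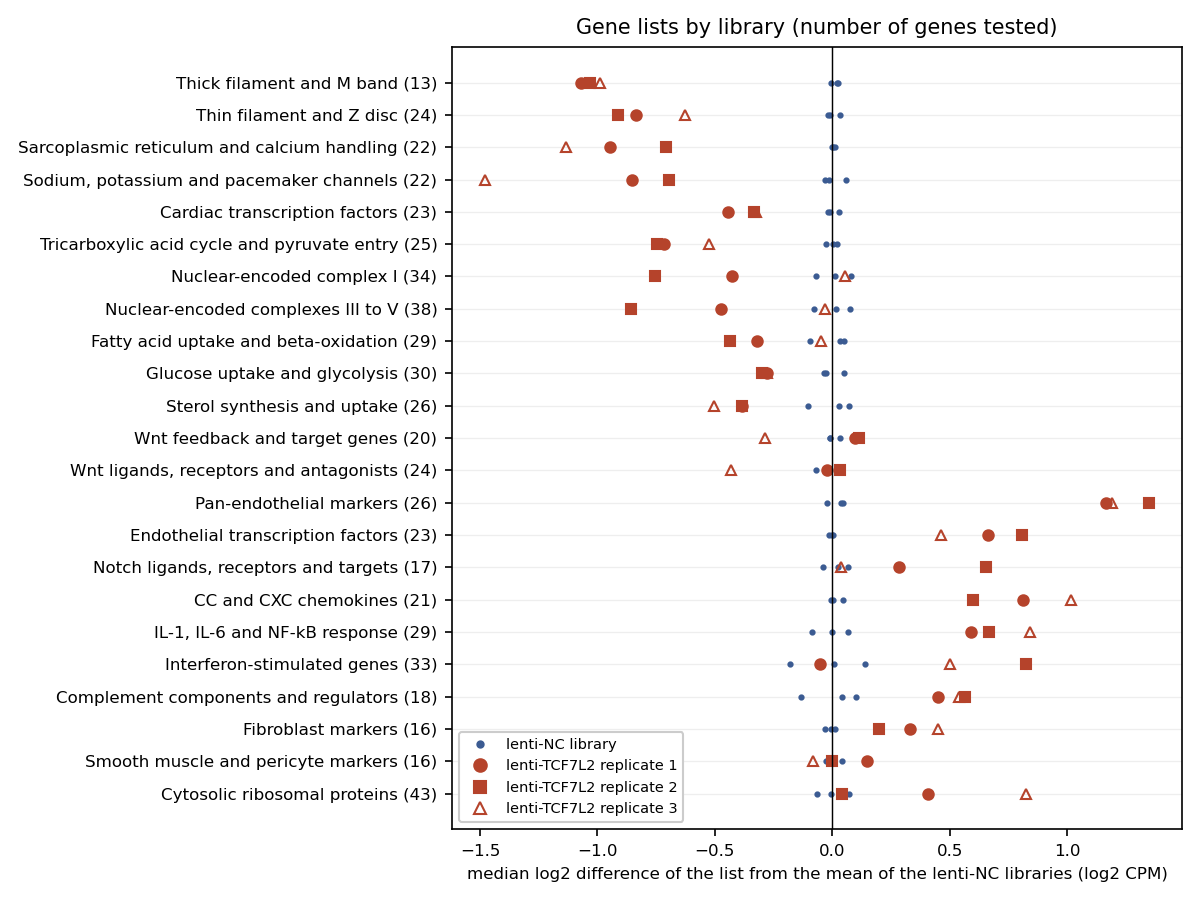
Median log2 difference from the mean of the lenti-NC libraries (x axis, log2 CPM) for 23 gene lists (y axis, with the number of genes tested), blue dots for lenti-NC libraries and red symbols for lenti-TCF7L2 replicates 1 (circle), 2 (square) and 3 (open triangle). The contractile and tricarboxylic acid cycle lists lie left of 0 in all 3 lenti-TCF7L2 libraries, the endothelial and chemokine lists right of 0, and the complex I list at -0.43, -0.76 and 0.05.

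Many endothelial markers rose, among them Pecam1, Nos3 and Emcn. Of 26 pan-endothelial markers tested 15 rose and 1 fell, beside 10.9% and 9.07% of all genes, with 9 and 1 in all 6 fits, and the median difference was 1.50. The number higher was 9 to 10 without 1 of the lenti-NC libraries, 12 without lenti-TCF7L2 replicate 1, 15 without replicate 2 and 19 without replicate 3. Pecam1, an adhesion molecule of endothelial junctions, stood at 6.74, 8.58 and 8.91 CPM with lenti-NC and 33.4, 50.5 and 55.7 CPM with lenti-TCF7L2. The lowest lenti-TCF7L2 value was above 3 times the highest control value, and the difference was 2.52 (SE 0.23, adjusted p = 0.00220). Nos3, the endothelial nitric oxide synthase, stood at 4.32, 4.05 and 4.83 CPM with lenti-NC and 16.4, 25.1 and 24.4 CPM with lenti-TCF7L2 and rose by 2.32 (SE 0.20, adjusted p = 0.00210). Emcn, a sialomucin of capillaries and veins, stood at 1.01, 1.28 and 1.27 CPM with lenti-NC and 8.34, 9.66 and 14.9 CPM with lenti-TCF7L2 and rose by 3.19 (SE 0.28, adjusted p = 0.00220). Cldn5, the tight-junction claudin of endothelium, was near the floor in the controls at 0.270, 0.338 and 0.536 CPM with lenti-NC and 2.89, 3.89 and 6.77 CPM with lenti-TCF7L2. It was higher in each lenti-TCF7L2 library, with a difference of 3.54 (SE 0.46, adjusted p = 0.00500). Cdh5, the cadherin of endothelial junctions, stood at 6.20, 7.16 and 7.44 CPM with lenti-NC and 23.3, 44.1 and 13.6 CPM with lenti-TCF7L2. Its groups did not overlap either, but replicate 3 was lowest, and the difference of 1.96 (SE 0.42, adjusted p = 0.0209) had an adjusted p of 0.0967 without lenti-NC replicate 1 and became 2.28 (adjusted p = 8.56e-05) without replicate 3.

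The endothelial list did not move as a block. S1pr1, a sphingosine 1-phosphate receptor of endothelium and heart muscle, stood at 115, 117 and 110.4 CPM with lenti-NC and 63.3, 64.5 and 64.2 CPM with lenti-TCF7L2. It was lower in all lenti-TCF7L2 libraries, at a difference of -0.84 (SE 0.07, adjusted p = 0.00220), the only fall in the list with the 6 libraries. The number lower was 2 of 26 without replicate 3 and also 2 after length adjustment. Kdr, the main receptor for VEGF-A, differed by -0.51 (adjusted p = 0.142) and by -0.40 without replicate 3 (adjusted p = 0.114). Flt1, a second VEGF receptor, stood at 119, 125 and 119 CPM with lenti-NC and 119.7, 139 and 88.5 CPM with lenti-TCF7L2, and its log2 difference of -0.06 (95% interval -0.45 to 0.32) did not pass, but was 0.23 (adjusted p = 0.0185) after length adjustment. Of 5 lymphatic markers tested 2 rose and 0 fell, 2 and 0 in all 6 fits, but 3 rose and 2 fell without replicate 3. The list median of 0.81 became -0.063 with limma on log2(FPKM + 1) after its filter on mean FPKM. Lyve1, a hyaluronan receptor of lymphatic vessels and some macrophages, rose by 2.52 (SE 0.32, adjusted p = 0.00486) and Pdpn by 0.81 (SE 0.11, adjusted p = 0.00499). Prox1, the factor that specifies lymphatic endothelium and is also found in heart muscle, differed by -1.69 (adjusted p = 0.0949) and Flt4, the lymphatic VEGF receptor, by -1.03 (adjusted p = 0.0648).

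Many transcription factors of the endothelial lineage rose as well. Of 23 tested 13 rose and 0 fell, 8 in all 6 fits and 17 without replicate 3. The SoxF factors, which switch on arterial and lymphatic genes, all rose. Sox18 stood at 0.877, 1.89 and 1.34 CPM with lenti-NC and 9.22, 17.2 and 18.7 CPM with lenti-TCF7L2, a difference of 3.45 (SE 0.38, adjusted p = 0.00313). Sox7 stood at 1.96, 2.43 and 2.55 CPM with lenti-NC and 8.40, 13.2 and 13.2 CPM with lenti-TCF7L2, a difference of 2.32 (SE 0.23, adjusted p = 0.00250). Sox17 stood at 1.96, 1.55 and 1.88 CPM with lenti-NC and 5.14, 5.39 and 5.69 CPM with lenti-TCF7L2, a difference of 1.59 (SE 0.16, adjusted p = 0.00254). For each of the 3 the lowest lenti-TCF7L2 library was above the highest control. Erg, an ETS factor that maintains endothelial identity, rose by 1.77 (SE 0.26, adjusted p = 0.00630), and its relative Fli1 by 0.82 (SE 0.15, adjusted p = 0.0123), with an adjusted p of 0.0697 without lenti-NC replicate 2. Lmo2, a bridging protein of blood and vessel factor complexes, rose by 2.05 (SE 0.26, adjusted p = 0.00471), and the repressor Bcl6b by 2.37 (SE 0.28, adjusted p = 0.00405).

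**Figure D5:**
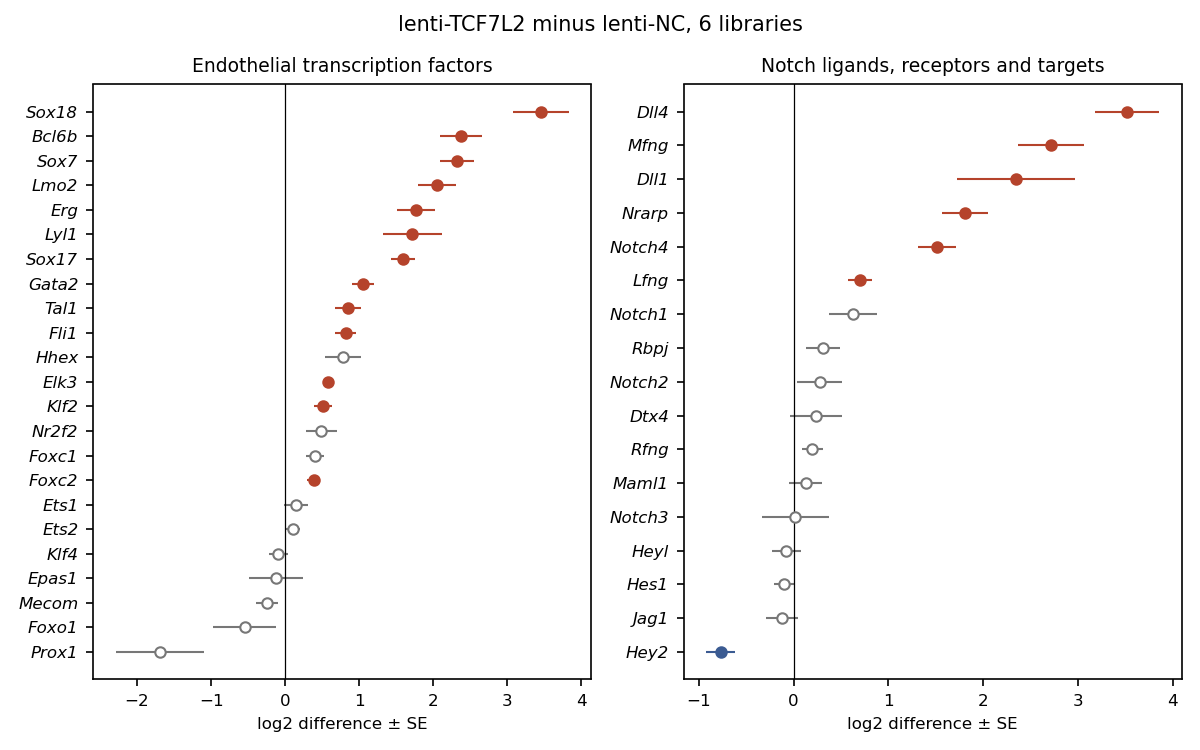
Log2 difference with its standard error (x axis, lenti-TCF7L2 minus lenti-NC, 6 libraries) for each tested gene of the endothelial transcription factor list (left) and the Notch list (right). Red points rose, blue points fell and open grey points did not pass the test. Sox18 at 3.45 and Dll4 at 3.52 lead the lists, and Hey2 at -0.77 is the only gene in blue.

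In Notch signalling, where a ligand on 1 cell frees the intracellular domain of a receptor on its neighbour, the genes Dll4, Notch4, Mfng and Nrarp rose. Of 17 Notch genes tested 6 rose and 1 fell, with 4 higher in all 6 fits and 12 higher without replicate 3. Dll4, a ligand of arteries and tip cells, stood at 0.607, 0.946 and 1.07 CPM with lenti-NC and 6.84, 13.4 and 10.2 CPM with lenti-TCF7L2. The groups were far apart, and Dll4 rose by 3.52 (SE 0.34, adjusted p = 0.00235). Notch4, the receptor of endothelium, stood at 7.35, 8.31 and 7.57 CPM with lenti-NC and 16.7, 27.9 and 21.6 CPM with lenti-TCF7L2 and rose by 1.51 (SE 0.20, adjusted p = 0.00526). Notch1, a broadly used receptor, differed by 0.63 (adjusted p = 0.132) and by 0.85 (adjusted p = 0.00156) without replicate 3. Of the glycosyltransferases that tune receptors, Mfng rose by 2.72 (SE 0.35, adjusted p = 0.00486), and Lfng by 0.70 (SE 0.13, adjusted p = 0.0132) with an adjusted p of 0.0689 without lenti-NC replicate 1. Targets did not share 1 direction. Nrarp, a feedback inhibitor, stood at 2.50, 1.89 and 2.08 CPM with lenti-NC and 5.39, 8.22 and 9.10 CPM with lenti-TCF7L2 and rose by 1.81 (SE 0.25, adjusted p = 0.00547). Hey2, a repressor of the ventricle and of arteries, stood at 13.0, 15.3 and 12.6 CPM with lenti-NC and 7.21, 9.35 and 7.49 CPM with lenti-TCF7L2. It was lower in each lenti-TCF7L2 library, at a difference of -0.77 (SE 0.15, adjusted p = 0.0174), with an adjusted p of 0.0828 without lenti-NC replicate 2. Hes1 differed by -0.10 (adjusted p = 0.541), and Hey1 and Hes5 had too few counts to be tested.

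The promoter window of Nrarp is printed because it holds the letters AACAATGG searched for SOX factors, here as the reverse complement CCATTGTT in capitals, with the first base at position -61 from the start, in the stretch chr3:28390667-28390708 of GRCr8, plus strand, from RefSeq. Of windows of tested genes 0.548% held the letters on either strand, against 0.504% of genes that rose and 0.717% of genes that fell, and the match is a description of letters only.
Nrarp: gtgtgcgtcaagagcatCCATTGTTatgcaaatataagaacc

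Ligands and receptors that guide vessel growth rose in part. Of 21 VEGF, angiopoietin, apelin and chemokine guidance genes 8 rose and 2 fell, 6 and 0 in all 6 fits. Cxcl12, a chemokine that draws in progenitor cells and vessels, stood at 485, 555 and 512 CPM with lenti-NC and 1057, 1242 and 1341 CPM with lenti-TCF7L2 and rose by 1.23 (SE 0.12, adjusted p = 0.00235). Its receptor Cxcr4 stood at 3.30, 3.58 and 3.42 CPM with lenti-NC and 11.0, 16.3 and 22.5 CPM with lenti-TCF7L2 and rose by 2.27 (SE 0.27, adjusted p = 0.00409). Apln, the ligand apelin, rose by 1.45 (SE 0.21, adjusted p = 0.00658) and its receptor Aplnr by 2.84 (SE 0.43, adjusted p = 0.00719). Pdgfb, which recruits pericytes, rose by 1.81 (SE 0.25, adjusted p = 0.00579). Vegfa, the main ligand of Kdr, differed by -0.35 (adjusted p = 0.104).

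Many chemokines and inflammatory mediators rose, and none of those tested fell in the 6-library fit. Of 21 chemokine genes 14 rose and 0 fell, 8 in all 6 fits, and of 29 genes of the IL-1, IL-6 and NF-kB response 16 rose and 0 fell, 5 in all 6. The second count was 5 to 12 without 1 of the lenti-NC libraries, 16 without lenti-TCF7L2 replicate 1, 19 without replicate 2 and 22 without replicate 3. Ccl6, a CC chemokine of myeloid cells, stood at 3.03, 2.84 and 3.28 CPM with lenti-NC and 15.2, 17.3 and 17.1 CPM with lenti-TCF7L2. All lenti-TCF7L2 libraries lay well above the controls, at a difference of 2.44 (SE 0.13, adjusted p = 0.00169). Il1rn, the antagonist of the IL-1 receptor, stood at 14.8, 13.6 and 12.3 CPM with lenti-NC and 32.2, 31.3 and 31.7 CPM with lenti-TCF7L2 and rose by 1.23 (SE 0.11, adjusted p = 0.00220). Il33, an alarmin of stromal and endothelial nuclei, rose by 1.30 (SE 0.14, adjusted p = 0.00323), and Selp, the endothelial P-selectin, by 1.31 (SE 0.12, adjusted p = 0.00235). Slpi, a secreted protease inhibitor, stood at 21.0, 32.6 and 24.2 CPM with lenti-NC and 119, 169 and 411 CPM with lenti-TCF7L2, with replicate 3 far above the others. It rose by 3.17 (SE 0.49, adjusted p = 0.00767), by 2.47 (adjusted p = 1.45e-05) without replicate 3, and had an adjusted p of 0.0514 without lenti-NC replicate 1. Il6 rose by 1.13 (SE 0.23, adjusted p = 0.0179), with an adjusted p of 0.0886 without lenti-NC replicate 3, while Tnf differed by 0.73 (adjusted p = 0.0503) and Il1b by 0.54 (adjusted p = 0.154).

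Some macrophage markers rose as well. Of 14 tested 6 rose and 0 fell, 3 in all 6 fits and 10 without replicate 3, and 11 of 14 were higher without overlap, against 23.6% of all genes. Cd68, a lysosomal glycoprotein of macrophages, rose by 1.16 (SE 0.14, adjusted p = 0.00412) and the Fc receptor subunit Fcer1g by 1.42 (SE 0.15, adjusted p = 0.00302). Complement C1q chains and Cd163, which mark resident macrophages, had too few counts to be tested.

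Interferon-stimulated genes differed between libraries of 1 group. Of 33 tested 5 rose and 0 fell, 1 in all 6 fits, with library medians of -0.05, 0.83 and 0.50 in lenti-TCF7L2 replicates 1, 2 and 3 and between -0.18 and 0.14 in the controls. Ifitm1, a membrane protein that restricts virus entry, stood at 144, 148 and 147 CPM with lenti-NC and 263, 259.6 and 372 CPM with lenti-TCF7L2 and rose by 1.03 (SE 0.15, adjusted p = 0.00679). Isg15, a ubiquitin-like protein induced by type I interferon, stood at 13.8, 11.2 and 15.3 CPM with lenti-NC and 11.3, 23.9 and 29.5 CPM with lenti-TCF7L2. Replicate 1 read with the controls and the others above them, and the difference of 0.68 did not pass (adjusted p = 0.198). Of 18 MHC and antigen processing genes 6 rose and 1 fell, 2 and 1 in all 6. Rat MHC genes have close copies, so the split of reads among them is uncertain. Tap2, a peptide transporter, rose by 0.75 (SE 0.10, adjusted p = 0.00515), while RT1-Bb, a class II chain, stood at 10.5, 11.4 and 12.1 CPM with lenti-NC and 2.13, 2.38 and 3.77 CPM with lenti-TCF7L2 and fell, with a difference of -2.03 (SE 0.23, adjusted p = 0.00326).

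Some complement genes rose, among them Cfb and Serping1. Of 18 tested 9 rose and 1 fell, 4 and 1 in all 6 fits. Cfb, factor B of the alternative pathway, stood at 18.3, 23.2 and 25.4 CPM with lenti-NC and 66.0, 95.3 and 97.3 CPM with lenti-TCF7L2 and rose by 1.95 (SE 0.20, adjusted p = 0.00250). Serping1, the inhibitor of the C1 proteases, rose by 1.17 (SE 0.13, adjusted p = 0.00294), and the protease gene C1r by 0.51 (SE 0.09, adjusted p = 0.0116), with an adjusted p of 0.0809 without lenti-NC replicate 3. Cd59, which blocks the terminal complex on host cells, fell, with a difference of -0.61 (SE 0.09, adjusted p = 0.00721). C3, the central component, differed by 0.08 (adjusted p = 0.747).

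Some matrix genes rose, among them Spp1, Fmod and Dcn. Of 32 small leucine-rich and elastic matrix genes 15 rose and 2 fell, 6 and 0 in all 6 fits, and of 14 collagen genes 2 rose and 1 fell, 1 and 0 in all 6. Without replicate 3 the numbers higher were 18 of 32 and 7 of 14, and after length adjustment 16 and 8. Of all genes 18.2% and 16.6% were higher in these 2 fits. Spp1, osteopontin, an adhesive phosphoprotein of injured tissue, stood at 142, 130.3 and 152 CPM with lenti-NC and 371, 346 and 359 CPM with lenti-TCF7L2. The groups were tight and separate, and Spp1 rose by 1.34 (SE 0.09, adjusted p = 0.00169). Fmod, a proteoglycan that binds collagen fibrils, stood at 209, 290.1 and 248 CPM with lenti-NC and 578, 779 and 587 CPM with lenti-TCF7L2 and rose by 1.38 (SE 0.17, adjusted p = 0.00442). Dcn, decorin, also a marker of fibroblasts, rose by 0.89 (SE 0.13, adjusted p = 0.00683). Col1a1, the main fibrillar collagen chain, stood at 19008, 17802 and 18131 CPM with lenti-NC and 22463, 23752 and 19896 CPM with lenti-TCF7L2, and its difference of 0.27 (adjusted p = 0.189) was 0.33 (adjusted p = 0.00763) without replicate 3. Among matrix metalloproteinases and inhibitors 7 of 18 rose and 1 fell, 3 and 1 in all 6. Mmp12, the macrophage elastase, stood at 27.0, 28.2 and 31.6 CPM with lenti-NC and 121, 106 and 105 CPM with lenti-TCF7L2 and rose by 1.93 (SE 0.11, adjusted p = 0.00169). Mmp9, a gelatinase, rose by 1.61 (SE 0.20, adjusted p = 0.00453), and Timp1, an inhibitor of these enzymes, by 1.33 (SE 0.25, adjusted p = 0.0135), with an adjusted p of 0.0734 without lenti-NC replicate 1.

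Growth factor systems shifted at single genes. In the IGF system 5 of 17 rose and 2 fell, 3 and 0 in all 6 fits. Igfbp4, a binding protein that holds IGF away from its receptor, stood at 30.4, 39.1 and 40.1 CPM with lenti-NC and 95.5, 126 and 174 CPM with lenti-TCF7L2 and rose by 1.85 (SE 0.24, adjusted p = 0.00480). H19, an imprinted long RNA next to Igf2, rose by 1.35 (SE 0.20, adjusted p = 0.00683). In BMP and TGF-β signalling 7 of 32 rose and 3 fell, 2 and 1 in all 6, and 10 rose and 7 fell without lenti-TCF7L2 replicate 3. Acvrl1, the endothelial type I receptor, stood at 70.3, 85.5 and 78.8 CPM with lenti-NC and 162, 174 and 181 CPM with lenti-TCF7L2 and rose by 1.14 (SE 0.10, adjusted p = 0.00220). Nog, a secreted BMP antagonist, rose by 1.63 (SE 0.18, adjusted p = 0.00296), and the ligand Bmp7 fell, with a difference of -0.81 (SE 0.09, adjusted p = 0.00326).

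Whether ribosomal protein genes passed the test turned on the library left out. None of 43 cytosolic ribosomal protein genes was called in edgeR with the 6 libraries, although 21 had an unadjusted p under 0.05 and a higher level. DESeq2 called 8 higher. Of all 11647 genes, 4172 had an unadjusted p under 0.05 in either direction, and DESeq2 called 1316 higher. The number higher was 0 without 1 of the lenti-NC libraries, 0 without lenti-TCF7L2 replicate 1, 40 without replicate 2 and 13 without replicate 3. It was 30 after length adjustment. Over all genes 1794 of 11739 were higher without replicate 2, 18.2% without replicate 3 and 16.6% after length adjustment. The library medians were 0.41, 0.04 and 0.83 in replicates 1, 2 and 3. Ribosomal protein genes have many near-identical pseudogenes, among which reads may be split. Rplp0, a stalk protein of the large subunit, stood at 1771, 1813 and 1905 CPM with lenti-NC and 2489, 2105 and 3195 CPM with lenti-TCF7L2. Replicate 2 was nearest to the controls and replicate 3 furthest, and the difference was 0.51 (adjusted p = 0.0713). In the ATF4 and amino acid response 9 of 24 rose and 1 fell, 1 and 0 in all 6 fits. Cebpb, a stress and inflammation factor, stood at 116, 127 and 113 CPM with lenti-NC and 318, 298 and 465 CPM with lenti-TCF7L2 and rose by 1.60 (SE 0.18, adjusted p = 0.00335). Of 38 DNA replication and mitosis genes 3 rose and 1 fell, 0 and 0 in all 6, and 10 rose and 1 fell without lenti-TCF7L2 replicate 3. Cdt1, a licensing factor, differed by 0.66 (adjusted p = 0.00909, and 0.0653 without lenti-NC replicate 3).

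The 12 largest rises and 12 largest falls were taken among genes called with and without replicate 3, with no overlap and at least 50 counts on average in the higher group. The rises held vessel genes described above (Cldn5, Dll4, Sox18, Emcn, Aplnr) beside Lrg1, Slpi, Kcne3, Aoc1, Fam110d, Tmem59l and Rnase1l2. Rnase1l2, of the pancreatic ribonuclease family, had 1 count over the 3 lenti-NC libraries and 40, 40 and 71 with lenti-TCF7L2. Its close relatives in the genome make the assignment of reads uncertain. The ratio was 138.5 in scaled counts (95% exact binomial interval 24.5 to 5504, counting error only), and 111.8 (19.5 to 4469) without replicate 3. Aoc1, a diamine oxidase that degrades histamine, stood at 0.135, 0.203 and 0.335 CPM with lenti-NC and 3.64, 5.46 and 5.81 CPM with lenti-TCF7L2 and rose by 4.42 (SE 0.36, adjusted p = 0.00190). Its controls held 2, 3 and 5 counts, so the fitted size depends on the prior count. Tmem59l rose by 2.77 (SE 0.66, adjusted p = 0.0301), by 2.00 without replicate 3, and had an adjusted p of 0.122 without lenti-NC replicate 1 and of 0.0571 with limma on log2(FPKM + 1) and no filter. The falls held Myl1, Esrrb, Scd, Mb, Gpr22 and Myom2 from the lists above, and also Astn2, Atp12a, LOC688553, Asb11, Asb4 and Fcer2. Astn2, an astrotactin known from migrating neurons, stood at 31.0, 32.6 and 33.4 CPM with lenti-NC and 5.27, 6.21 and 2.58 CPM with lenti-TCF7L2. All lenti-TCF7L2 libraries were low, at a difference of -2.79 (SE 0.30, adjusted p = 0.00289). Asb11 and Asb4, ubiquitin ligase adaptors, differed by -2.36 (SE 0.22, adjusted p = 0.00235) and -2.27 (SE 0.37, adjusted p = 0.00891), and Asb4 had an adjusted p of 0.0506 without lenti-NC replicate 1. Atp12a, the non-gastric proton-potassium pump, stood at 5.40, 4.66 and 4.96 CPM with lenti-NC and 1.44, 0.502 and 0.778 CPM with lenti-TCF7L2 and fell, with a difference of -2.45 (SE 0.33, adjusted p = 0.00526).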

How the data were processed

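Messenger RNA of 9 libraries was sequenced, and 6 are compared here. Each library's table, as deposited by the authors, lists for every gene an expected count, an FPKM value (fragments per kilobase, scaled to depth) and a length in bases. The submitters' processing notes name HISAT2, Bowtie2, RSEM 1.3.1, DESeq2 1.4.5 and the build rn6, and the sources used here do not give their settings.

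Expected counts, 84.2% to 84.5% of them whole, were rounded. Genes below edgeR's filterByExpr limit were set aside (2750 of 14397 listed in any of the 6 libraries; 12462 were listed in all). The rest were scaled by TMM and tested with edgeR 4.0.16 (quasi-likelihood, R 4.3.3), with p-values adjusted by the Benjamini-Hochberg method over all 11647 genes. CPM were computed from TMM-scaled library sizes, and lists were summed by them. Exact binomial intervals and count floors cover counting error only. The model-based biological coefficient of variation was 18.2%, and 7.47% without lenti-TCF7L2 replicate 3. Length adjustment subtracted from each library a lowess curve (span 0.3) of log2 difference on log length, given to edgeR as an offset.

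The results were recomputed with upper-quartile or RLE factors, without the filter, with a minimum of 10 counts in 3 libraries, with DESeq2 1.42.0, with limma 3.58.1 on log2(FPKM + 1) and log2(FPKM + 0.1), a replicate block, all 9 libraries, length adjustment and leaving out each library. Counts were simulated for 11647 genes of lenti-TCF7L2 against lenti-NC, with 66, 67 and 65 genes changed by 0.585, 1 and 2 on the log2 scale. Of these genes 7.58%, 55.2% and 95.4% were recovered, and 9.57% of calls were false, above the limit of 0.05. Far fewer genes were changed there than the 2321 called in the data, and no length trend was simulated. These shares may therefore not hold for the data.

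Named genes were Tcf7l2 and Car2, up to 4 called members of each of 53 lists with the lowest p (or the 2 with the highest mean where none was called), the 12 largest rises and falls, and 49 other list members, named to complete a pathway by role after their values were seen. The comparison and the lists were chosen with earlier results of these data known. Old symbols were matched by gene identifier. Promoter windows came from RefSeq's GRCr8 table, which is another build than rn6, by gene identifier. Python 3.11.15, pandas 2.3.3, scipy 1.17.1 and matplotlib 3.10.9 were used.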

Additional observations from a re-analysis of the deposited data

How the results depend on the processing

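Against 2321 changed genes, the number was 1506 with the replicate number as a block, 3741 with all 9 libraries in the fit, 3533 after length adjustment, 5072 after length adjustment without lenti-TCF7L2 replicate 3, and 678 to 4353 when 1 library was left out. Deviations of same-numbered libraries correlated at 0.0855, 0.0443 and 0.159 and of others at -0.167 to 0.118. The labels do not say whether a number marks a shared culture or day, and these values cannot tell. No scaling moved the median of all genes by over 0.1, but upper-quartile scaling moved it by 0.068. With that scaling 1556 genes were called higher and 925 lower, so that 62.7% of calls were higher, against 54.5%. Of the named genes called with the 6 libraries, the block kept 208 of 229, length adjustment 227 and upper-quartile scaling 228. RLE scaling, both other count filters and DESeq2 kept all 229. Many of these genes were named for a low p in the same fit, which favours keeping them. Of all 2321 calls the block kept 1472, length adjustment 2214, upper-quartile scaling 2189 and DESeq2 2241. Limma kept 220 named genes in all 3 forms, of 223 that had a value after filtering and of 229 without the filter. Many more calls were lost when 1 lenti-NC library was left out. That kept 152 to 160 of the named genes and 675 to 775 of all 2321 calls. Leaving out lenti-TCF7L2 replicate 1 kept 184, replicate 2 228 and replicate 3 all 229. The largest rises and falls among the named genes had to be called without replicate 3, so keeping them there was fixed in advance. The count of 229 is therefore no test of them. Of all 2321 calls, which were not chosen in that way, 2313 were kept without lenti-TCF7L2 replicate 3. The share of calls that were higher was 64.1% with limma on log2(FPKM + 1), with 1560 higher and 875 lower after filtering and 1587 and 889 without. Of 53 list medians 45 kept their sign under every setting. Of the 2321 called genes 1 had the opposite sign after length adjustment, and no call did so in the other settings. Some named genes that were not called also changed sign. Epb42 became -0.011 (RLE), -0.0037 (no filter), -0.0023 (count filter) and -0.011 (DESeq2). It became -0.0044 without lenti-TCF7L2 replicate 3 and -0.011 with length adjustment as well, and lay between -0.15 and 0.11 when 1 library was left out. Flt1 became 5.74e-05 with upper-quartile scaling, 0.23 after length adjustment, 0.10 without replicate 3 and 0.22 with both. Slc2a1 became 0.021 with upper-quartile scaling and 0.013 with limma in all 3 forms. When 1 library was left out Axin2 ranged from -0.067 to 0.37, C3 from -0.095 to 0.21 and Flt1 from -0.23 to 0.10. The cause of these shifts was not tested. Genes at few counts, such as Axin2 and Car2, limit what depth can show.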

Other observations

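Some muscle genes outside the contractile, metabolic and channel lists also fell. Of 16 muscle ubiquitin ligase, Kelch and ASB genes 10 fell and 1 rose, 5 and 0 in all 6 fits that leave out 1 library. Klhl41, a Kelch protein that stabilises the sarcomere, stood at 45.7, 43.7 and 46.9 CPM with lenti-NC and 20.9, 18.7 and 16.6 CPM with lenti-TCF7L2. All lenti-TCF7L2 libraries were lower, at a difference of -1.28 (SE 0.12, adjusted p = 0.00220). Trim55, a muscle RING-finger protein, differed by -0.80 (SE 0.08, adjusted p = 0.00235), and Asb2, an adaptor that targets filamins, by -0.78 (SE 0.07, adjusted p = 0.00235). Fbxo32, the atrophy ligase atrogin-1, stood at 27.4, 32.4 and 32.2 CPM with lenti-NC and 15.8, 24.0 and 5.57 CPM with lenti-TCF7L2, and its difference of -1.02 did not pass (adjusted p = 0.160). Small heat shock proteins and immediate early genes moved in both directions, with 9 of 29 higher and 7 lower, 3 and 1 in all 6. Nr4a1, an orphan nuclear receptor, rose by 0.86 (SE 0.10, adjusted p = 0.00409), and Hspb7, a heart muscle chaperone, stood at 1183, 1162 and 1138 CPM with lenti-NC and 740.4, 691 and 824 CPM with lenti-TCF7L2 and fell, with a difference of -0.63 (SE 0.10, adjusted p = 0.00733).

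Among 18 p53 target genes 3 rose and 4 fell, 0 and 1 in all 6. Without lenti-TCF7L2 replicate 3 the numbers were 4 and 9, against 18.2% and 18.9% of all genes in that fit. Ccng1, cyclin G1, stood at 581, 577 and 562 CPM with lenti-NC and 273, 251 and 246 CPM with lenti-TCF7L2. Its groups were far apart, at a difference of -1.16 (SE 0.08, adjusted p = 0.00169), while Cdkn1a, the p21 inhibitor, differed by -0.17 (adjusted p = 0.394). Of 15 clock genes 4 fell and 0 rose, 0 in all 6, and 1 of them, Nr1d1, the repressor REV-ERBα, differed by -0.44 (SE 0.08, adjusted p = 0.0144), with an adjusted p of 0.0769 without lenti-NC replicate 3. Of 22 metallothionein and NRF2 genes 5 rose and 2 fell, 1 and 0 in all 6. Hmox1, the heme oxygenase, stood at 89.7, 117 and 105 CPM with lenti-NC and 175, 169.7 and 199.8 CPM with lenti-TCF7L2 and rose by 0.81 (SE 0.12, adjusted p = 0.00732). Among 12 epicardial and mesothelial markers, 2 rose and 1 fell, 1 and 0 in all 6, and Aldh1a2, which makes retinoic acid, rose by 1.17 (SE 0.17, adjusted p = 0.00621). Fibroblast markers rose for 7 and fell for 1 of 16, 1 and 0 in all 6, and 8 rose and 3 fell without lenti-TCF7L2 replicate 3. Pdgfra differed by 1.05 (SE 0.18, adjusted p = 0.0112) and Thy1 by -0.60 (SE 0.10, adjusted p = 0.0111). Over the 6 fits that leave out 1 library, the highest adjusted p was 0.0671 for Pdgfra without lenti-NC replicate 1 and 0.0619 for Thy1 without lenti-NC replicate 1.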
